A study of Mus musculus with 24 samples.

Results

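The genes described here are 10 that make, carry, bind or break down retinoic acid, the active derivative of vitamin A. They were taken from the deposited table by gene name and are 10 of its 28109 genes. The set was chosen by pathway with expression values of these libraries already known, and which contrast was looked at is not recorded, so no count over the set is a test. The members are the hydroxylases Cyp26a1 and Cyp26b1, the dehydrogenases Aldh1a1, Aldh1a2 and Aldh1a3, the receptors Rara, Rarb and Rarg, and the binding proteins Crabp1 and Crabp2. RNA-seq was made of the mouse myoblast line C2C12, which derives from the C3H strain, and of primary myoblasts (PMs) of C57/B6 mice 3 to 4 weeks old. Each cell type was transfected with a control siRNA against luciferase (siControl) or with a combination that targets both Tead1 and Tead4 (siTead1/4), and RNA was prepared from undifferentiated cells 24 hours later (day 0) and at days 3 and 6 in medium with 2% horse serum. Each of the 12 groups had 2 biological replicates, which gives 24 libraries. C2C12 cells were kept in DMEM and PMs on matrigel in IMDM, so strain, culture and cell type cannot be told apart. The labels do not say how many animals gave the PMs, nor whether 1 isolate was used for several groups. The total count on genes ran from 25453830 to 52784510 per library (median 39204772).

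Retinoic acid is made in a pair of steps: retinol is oxidised to retinal by retinol and alcohol dehydrogenases, and retinal is oxidised irreversibly to retinoic acid by the Aldh1a enzymes. Inside the cell it is carried by the Crabp proteins, is hydroxylated for disposal by the Cyp26 enzymes, and acts through the RAR receptors, which bind DNA as partners of the RXR receptors. Cyp26a1 and Rarb are textbook direct targets of the receptors themselves. In myoblast cultures, retinoic acid is known for acting on the choice between growth and differentiation.

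The siRNA targets were lower in siTead1/4 cells in each of the 6 comparisons of group means. Tead4, a TEAD transcription factor that binds the MCAT element, was at 18.7 and 21.2 CPM (counts scaled to a common library size with edgeR's TMM method) in the siControl C2C12 libraries at day 0 and at 4.37 and 4.28 CPM in the siTead1/4 libraries. In PMs at day 3, Tead4 was at 194 and 197 CPM against 30.6 and 35.2 CPM. Tead1 was less evenly reduced: in C2C12 cells at day 0 it was at 70.5 and 113 CPM in siControl cells and at 28.9 and 4.50 CPM in siTead1/4 replicates 1 and 2. At day 6 in C2C12 cells the Tead1 libraries of the siRNAs overlapped, at 76.0 and 136 CPM against 70.6 and 77.0 CPM, and neither target was called there (edgeR adjusted p = 0.95 for Tead1 and 0.32 for Tead4). Only 1 of the 2 targets was called lower in C2C12 cells at day 0, in C2C12 cells at day 3 and in PMs at day 6. Both were called lower in PMs at days 0 and 3.

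The labelled cell type was checked with marker genes. Desmin (Des), an intermediate filament protein of muscle, was at 413 CPM or more in each C2C12 library and at 1428 CPM or more in each PM library. The 6 myotube markers summed to 88.6 and 36.6 CPM in siControl C2C12 cells at day 0, and to 9525 and 8607 CPM in siControl PMs at day 0. PMs at day 0 thus already held myotube transcripts at levels that C2C12 cells lacked. Several markers of other cells were well above 0. The fibroblast and progenitor markers summed to 934 to 3740 CPM in C2C12 libraries and to 558 to 3896 CPM in PM libraries. The smooth muscle markers summed to 785 to 4113 and to 670 to 1869 CPM, led by the actin Acta2, and the tenocyte markers to 50.1 to 227 and to 33.3 to 195 CPM, led by the transcription factor Scx. The fat cell markers summed to 23.4 to 63.5 and to 5.39 to 28.5 CPM, led by Pparg or Cebpa, while Adipoq and Plin1, which define fat cells, reached at most 0.0978 CPM in any library. The macrophage markers summed to 0.648 to 2.42 and to 0.701 to 2.18 CPM, led by Cd68, with Ptprc and Emr1 at most at 0.0593 CPM. The 4 endothelial markers summed to 2.79 to 13.8 CPM in PM libraries and the 4 Schwann cell markers to 2.08 to 14.2 CPM, the former led by Cdh5, and each sum was higher in replicate 1 than in replicate 2 in 6 of 6 PM groups. In bulk RNA, fewer cells of a type and less RNA per cell cannot be told apart.

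Promoter sequence is printed for 3 of the genes. RefSeq windows from 250 bases before to 50 after the start were given for 8 of the 10 genes (13 windows, table of build GRCm38). They were searched on both strands for a direct repeat of 2 hexamers with 5 bases between them (DR5, the classical retinoic acid receptor element). Each hexamer could read AGTTCA. The spelling AGGTCA was allowed as well. A further spelling, GGTTCA, was added after the sequences were seen, and without it the letters were found in 0.0396% of windows and in that of Cyp26a1 alone among the members. The windows were also searched for CATTCC, the core of the MCAT element bound by TEAD factors, and this core does not overlap the DR5 match in Rarb. With all spellings the DR5 letters were present in the windows of Cyp26a1 and Rarb, and in 0.0609% of all 32851 promoter windows of the table. The MCAT core was present in windows of Rarb, Crabp1 and Aldh1a1, and in 14.7% of all windows. The window of Cyp26b1 held the letters of neither. The 130 bases before the start of the genes shown were matched exactly to mm9 (NCBIM37) and are printed 5′ to 3′ on the strand of the gene. Capitals mark a DR5 element (17 letters) or an MCAT core (6 letters), also where the match lies on the opposite strand. The genes shown are all among those whose windows held a match, so the printed sequences do not stand for the members at large. Cyp26a1, Rarb and Crabp1 also had the widest range of group means among the hydroxylases, receptors and binding proteins. Aldh1a2, the widest among the dehydrogenases, held no match and is not shown.
Cyp26a1, chr19:37772168-37772297, plus strand: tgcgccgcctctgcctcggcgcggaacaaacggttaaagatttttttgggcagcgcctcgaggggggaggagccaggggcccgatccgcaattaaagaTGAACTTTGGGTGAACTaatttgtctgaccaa
Rarb, chr14:17407991-17408120, minus strand: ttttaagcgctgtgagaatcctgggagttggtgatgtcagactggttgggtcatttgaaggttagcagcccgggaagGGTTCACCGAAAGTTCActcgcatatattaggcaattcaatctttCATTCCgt
Crabp1, chr9:54612425-54612554, plus strand: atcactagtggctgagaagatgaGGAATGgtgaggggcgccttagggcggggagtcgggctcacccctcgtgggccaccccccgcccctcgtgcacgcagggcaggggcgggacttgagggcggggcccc
The element of Cyp26a1 lies 32 to 16 bases before the start and reads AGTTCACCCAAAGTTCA on the opposite strand. That of Rarb lies 53 to 37 bases before a start inside the annotated gene. A match is a description of letters and not a measured binding site.

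**Figure D1:**
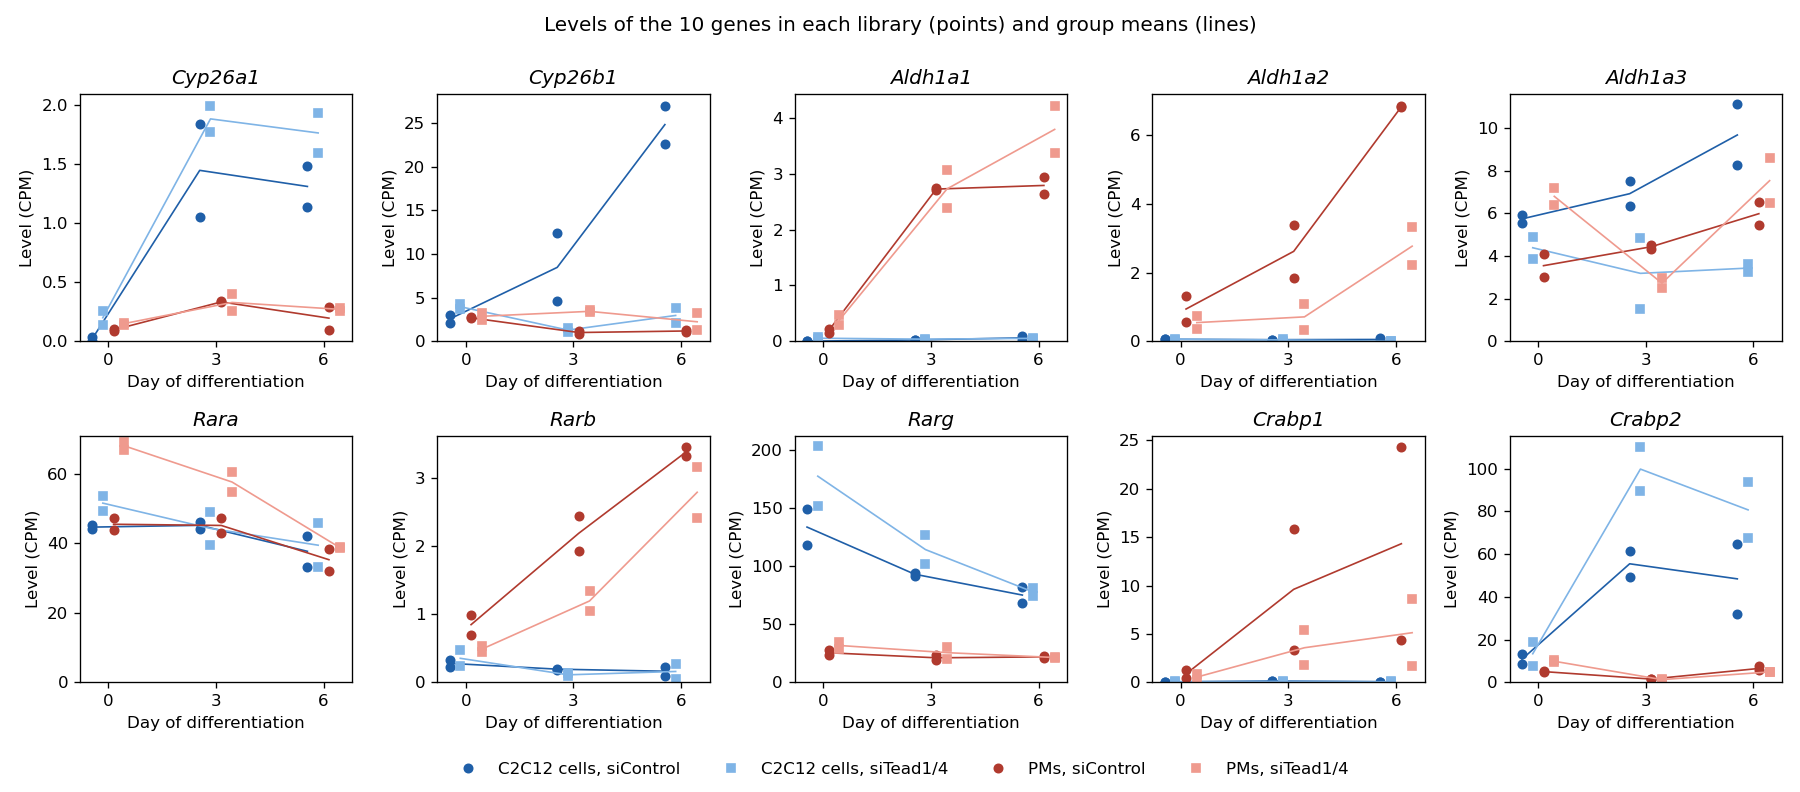
Level (CPM, linear axis from 0, a scale of its own per gene) of each of the 10 genes against the day of differentiation; points are libraries, lines join group means, blue is C2C12 cells, red is PMs, circles are siControl and squares siTead1/4. Cyp26b1 reached 22.6 and 27.0 CPM in siControl C2C12 cells at day 6 and stayed at 4.21 CPM or less in the other C2C12 siRNA and in PMs, whereas Aldh1a1, Aldh1a2, Rarb and Crabp1 were near 0 in C2C12 cells and higher in PMs.

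Among the breakdown enzymes, Cyp26b1 was called after siTead1/4 at day 3 in both cell types, lower in C2C12 cells and higher in PMs. Cyp26b1 (ENSMUSG00000063415, mm9 chr6:84521938-84543740, minus strand) encodes a hydroxylase that inactivates retinoic acid. In siControl C2C12 cells it was at 2.08 and 2.99 CPM at day 0, at 4.55 and 12.3 CPM at day 3 and at 22.6 and 27.0 CPM at day 6. In siTead1/4 C2C12 cells it was at 3.69 and 4.21 CPM at day 0, at 1.46 and 1.09 CPM at day 3 and at 2.1 and 3.79 CPM at day 6. The siTead1/4 libraries lay below the siControl libraries at days 3 and 6 with no overlap, and above them at day 0. At day 3 the log2 fold change of siTead1/4 over siControl was -2.76 (standard error 0.48, edgeR adjusted p = 0.032). The day 6 value was -3.06 (standard error 0.47, edgeR adjusted p = 0.082), which did not pass. It passed with DESeq2 (-3.07, adjusted p = 3.7e-08), with no filter on low counts (-3.06, edgeR adjusted p = 7.2e-15) and in a fit of all 24 libraries (-3.06, edgeR adjusted p = 0.0050). It also passed with a replicate block (-3.11), but not with the replicate numbers crossed. It did not pass with median-of-ratios size factors (-3.07, adjusted p = 0.078), at least 10 counts in every library (-3.06, adjusted p = 0.13), the 4 libraries compared alone (-3.06, adjusted p = 0.20) or any replicate left out (-3.56 to -2.69, adjusted p = 0.070 to 0.30). The call at day 3 was lost without siControl replicate 1 (-3.31, edgeR adjusted p = 0.11), without siControl replicate 2 (-1.85, adjusted p = 0.41) and without siTead1/4 replicate 2 (-2.55, adjusted p = 0.085), and when only the 4 libraries compared were fitted (-2.74, adjusted p = 0.11) or at least 10 counts were asked of every library (-2.79, adjusted p = 0.052). Myotube markers were also lower in these libraries: their sum was 14596 and 17709 CPM in siControl and 5702 and 7138 CPM in siTead1/4 C2C12 cells at day 3, and the part of this in the Cyp26b1 difference was not tested.

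In PMs, Cyp26b1 moved the other way. In siControl PMs it was at 2.73 and 2.62 CPM at day 0, at 1.15 and 0.834 CPM at day 3 and at 1.07 and 1.27 CPM at day 6. In siTead1/4 PMs it was at 2.42 and 3.28 CPM at day 0, at 3.52 and 3.31 CPM at day 3, and at 3.20 and 1.24 CPM at day 6. Only at day 3 did the siTead1/4 PM libraries lie clear of the siControl ones. There Cyp26b1 was higher by 1.78 on the log2 scale (standard error 0.39, edgeR adjusted p = 0.024), while at day 6 the siTead1/4 replicates differed from each other and the difference of 0.93 was not called (edgeR adjusted p = 0.39). Myotube markers summed to 34339 and 31931 CPM in siControl and to 33409 and 27907 CPM in siTead1/4 PMs at day 3. The call was lost without siControl replicate 1 (2.02, edgeR adjusted p = 0.16), siControl replicate 2 (1.56, adjusted p = 0.19) or siTead1/4 replicate 1 (1.73, adjusted p = 0.053), and when all 24 libraries were fitted together (1.78, adjusted p = 0.052). The difference between the cell types was tested directly over all 24 libraries. The siTead1/4 effect on Cyp26b1 was higher in PMs than in C2C12 cells by 4.52 at day 3 (standard error 0.65, edgeR adjusted p = 0.0029) and by 3.99 at day 6 (standard error 0.65, edgeR adjusted p = 0.039). Without siControl replicate 1 of both cell types the day 3 difference was 5.31 (adjusted p = 0.059) and without siControl replicate 2 it was 3.41 (adjusted p = 0.25). The day 6 difference was not called without siControl replicate 1 (3.99, adjusted p = 0.84), siControl replicate 2 (3.99, adjusted p = 0.70) or siTead1/4 replicate 1 (2.77, adjusted p = 0.65), or with at least 10 counts in every library (4.00, adjusted p = 0.12).

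The same gene went opposite ways with differentiation of siControl cells. In C2C12 cells Cyp26b1 rose by 1.70 on the log2 scale from day 0 to day 3 (standard error 0.46, edgeR adjusted p = 0.014) and by 3.24 to day 6 (standard error 0.48, adjusted p = 0.00048). In PMs it fell by 1.49 to day 3 (standard error 0.40, edgeR adjusted p = 0.0079) and by 1.26 to day 6 (standard error 0.40, adjusted p = 0.017). The difference of the courses, PMs minus C2C12 cells, was -3.16 at day 3 (standard error 0.64, edgeR adjusted p = 0.0027) and -4.47 at day 6 (standard error 0.65, adjusted p = 0.00012). Without siControl replicate 1 or 2 the C2C12 rise to day 3 was 2.02 or 1.09 (edgeR adjusted p = 0.056 and 0.28). Without the same replicates the fall in PMs was -1.70 or -1.30 at day 3 (adjusted p = 0.067 and 0.12) and -1.10 or -1.43 at day 6 (adjusted p = 0.19 and 0.10). The difference at day 3 was -2.97 without PM replicate 2 (adjusted p = 0.055).

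Cyp26a1 (ENSMUSG00000024987, mm9 chr19:37772298-37776018, plus strand), the other hydroxylase and the carrier of the DR5 letters printed above, was a low transcript throughout. In siControl C2C12 cells it had 0 and 2 counts at day 0, 78 and 52 counts at day 3, and 77 and 34 counts at day 6 (1.84 and 1.05, then 1.48 and 1.14 CPM). Its day 3 and day 6 libraries all lay above those of day 0. Since day 0 rests on 2 counts, the rise is given as a ratio of counts: 65.0 at day 3 (exact 95% counting interval 17.6 to 542) and 62.3 at day 6 (16.8 to 521). Such intervals cover counting error only. Without siControl replicate 1 at day 0 the ratios were 39.8 and 38.2, and without replicate 2, which held both counts, they were at least 16.8 and 16.1 (floor of 3 counts). In siControl PMs it was at 0.106 and 0.0845 CPM at day 0, at 0.337 and 0.329 CPM at day 3, and at 0.0970 and 0.293 CPM at day 6. Its day 3 libraries lay above those of day 0, by 1.70 on the log2 scale (standard error 0.53). Cyp26a1 had 5 and 3 counts at day 0 and passed the filter on low counts through other libraries, so no test of its rise is read from the fit. Its edgeR call was lost with siControl replicate 1 (1.87) or 2 (1.58) left out and with DESeq2 (1.73, adjusted p = 0.11). In siTead1/4 cells it was at 1.77 and 1.99 CPM in C2C12 cells and 0.257 and 0.399 CPM in PMs at day 3, and it was not called at any day in either cell type. At day 0 it had 6 and 7 counts in siTead1/4 C2C12 cells against 0 and 2 in siControl cells, a ratio of 8.54 (exact 95% counting interval 1.93 to 77.9). This ratio was 5.23 without siControl replicate 1 and at least 2.20 without siControl replicate 2. At days 3 and 6 it was lower in siControl PMs than in siControl C2C12 cells, by 2.11 and 2.74 on the log2 scale (standard errors 0.43 and 0.48, edgeR adjusted p = 0.00081 and 0.00028).

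The synthesis enzymes split by cell type. Aldh1a1 and Aldh1a2 were at or near 0 in every C2C12 library (at most 3 counts) and did not pass the filter on low counts there, while Aldh1a3 was expressed in both cell types. Aldh1a2 (ENSMUSG00000013584, mm9 chr9:71063596-71144050, plus strand), the main retinoic acid synthase of the embryo, was at 0.551 and 1.32 CPM in siControl PMs at day 0, at 1.85 and 3.39 CPM at day 3, and at 6.86 and 6.81 CPM at day 6. Its day 6 libraries lay above all others. It rose by 1.45 on the log2 scale to day 3 (standard error 0.57, edgeR adjusted p = 0.049) and by 2.82 to day 6 (standard error 0.58, adjusted p = 0.0016). The day 3 call did not survive the loss of siControl replicate 1 (1.30, adjusted p = 0.20) or 2 (1.69, adjusted p = 0.13), or a fit of all 24 libraries (1.5, adjusted p = 0.055). Aldh1a2 in siTead1/4 PMs was at 0.353 and 0.731, 0.322 and 1.10, and 2.22 and 3.32 CPM at days 0, 3 and 6. The siTead1/4 libraries were below the siControl ones without overlap at days 3 and 6. The log2 differences were -1.91 and -1.30 (standard errors 0.58 and 0.53, edgeR adjusted p = 0.077 and 0.36) and were not called with the replicates taken as unpaired, and at day 0 the groups overlapped. DESeq2 called the day 3 difference (-1.91, adjusted p = 0.015), as did a fit with no filter on low counts (edgeR adjusted p = 0.0013). With the replicate number as a block, the differences of days 3 and 6 were -1.96 and -1.37 and both were called. The 8 fibroblast and progenitor markers had a median log2 difference of -0.57 at each of these days, with 0 called at day 3 and 2 called lower at day 6 (Dcn and Lum). Their sum was 1464 and 1978 CPM in siTead1/4 PMs against 1485 and 1604 CPM in siControl PMs at day 3, and 3342 and 2592 CPM against 3896 and 2815 CPM at day 6, led by Col1a1 with none of the markers at 0. The part of these cells in the Aldh1a2 values was not tested.

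Aldh1a1 (ENSMUSG00000053279, mm9 chr19:20676451-20717952, plus strand), a retinal dehydrogenase of broad substrate range, was at 0.148 and 0.225 CPM in siControl PMs at day 0, at 2.75 and 2.70 CPM at day 3 and at 2.94 and 2.64 CPM at day 6. The day 0 libraries were thus the lowest, and those of days 3 and 6 lay close together. Its fitted log2 differences from day 0 were 3.82 at day 3 and 3.84 at day 6 (standard errors 0.35 each). Aldh1a1 had 7 and 8 counts at day 0 and passed the filter on low counts through other libraries, so its rise is given without a test. In siTead1/4 PMs it was at 0.282 and 0.474 CPM at day 0, at 3.07 and 2.39 CPM at day 3 and at 3.38 and 4.22 CPM at day 6, with no call. Its neighbour Aldh1a7 (ENSMUSG00000024747, mm9 chr19:20767443-20802052, minus strand) is a close copy, so that reads may be split between them. Aldh1a7 had 0 counts in all 12 C2C12 libraries. In siControl PMs it was at 0.318 and 0.564 CPM at day 0 and at 0.0561 to 0.0978 CPM later, the reverse of the course of Aldh1a1. Aldh1a7 in siTead1/4 PMs was at 4.51 and 8.65 CPM at day 0, at 1.44 and 0.996 CPM at day 3 and at 0.115 and 0.155 CPM at day 6. At day 0 it was higher in siTead1/4 PMs by 3.91 on the log2 scale (standard error 0.41, edgeR adjusted p = 0.0012). At day 3 the ratio of its counts, 107 against 5, was 18.6 (exact 95% counting interval 7.71 to 58.3). With the counts of both copies added up, the difference of siTead1/4 PMs at day 0 was 3.48 (standard error 0.37, edgeR adjusted p = 0.0012), against 1.04 (adjusted p = 0.14) for Aldh1a1 alone. The sum did not differ at day 3 beyond the error (0.49, adjusted p = 0.42), and it still rose with differentiation of siControl PMs, by 2.12 and 2.15 to days 3 and 6 (adjusted p = 0.00061 and 0.00053).

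Aldh1a3 (ENSMUSG00000015134, mm9 chr7:73535778-73572403, minus strand), the third retinal dehydrogenase, was at 5.57 and 5.92 CPM in siControl C2C12 cells at day 0, at 7.50 and 6.36 CPM at day 3, and at 11.1 and 8.25 CPM at day 6. In siTead1/4 C2C12 cells it was at 3.88 and 4.90, 4.87 and 1.51, and 3.26 and 3.61 CPM. The siTead1/4 libraries lay below the siControl libraries at each day. None of these differences was called: they were -0.39, -1.14 and -1.49 on the log2 scale (standard errors 0.44 to 0.45, edgeR adjusted p = 0.85, 0.27 and 0.405). Without siTead1/4 replicate 1 the day 3 difference was -2.20 and passed (adjusted p = 0.010), and with no filter on low counts those of days 3 and 6 were -1.15 and -1.5 and passed (adjusted p = 0.020 and 0.0021). In PMs the order changed with the day: siTead1/4 against siControl was 6.42 and 7.19 against 3.01 and 4.09 CPM at day 0, 2.49 and 2.96 against 4.35 and 4.52 CPM at day 3, and 6.49 and 8.59 against 6.53 and 5.45 CPM at day 6. The day 0 difference of 0.93 (standard error 0.22, edgeR adjusted p = 0.029) passed the p threshold but not the fold threshold. Across cell types Aldh1a3 was not called at any day in siControl cells.

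Of the receptors, Rarb moved with differentiation in PMs, while Rara and Rarg, which were far more abundant, stayed within the fold threshold. Rarb (ENSMUSG00000017491, mm9 chr14:17263356-17651381, minus strand), the receptor that is itself a target of retinoic acid, was at 0.996 and 0.704 CPM in siControl PMs at day 0, at 1.94 and 2.45 CPM at day 3 and at 3.46 and 3.33 CPM at day 6. The libraries of the 3 days did not overlap. It rose by 1.30 on the log2 scale to day 3 (standard error 0.28, edgeR adjusted p = 0.0024) and by 1.92 to day 6 (standard error 0.28, adjusted p = 0.00017), and without siControl replicate 2 the rise to day 3 was 0.90 (adjusted p = 0.12). In siTead1/4 PMs it was at 0.447 and 0.533, 1.05 and 1.35, and 3.18 and 2.42 CPM. The siTead1/4 libraries were below the siControl libraries at each day, with log2 differences of -0.81, -0.88 and -0.28 that were not called (standard errors 0.26 to 0.30, edgeR adjusted p = 0.14, 0.081 and 0.79). In C2C12 cells Rarb had 2 to 19 counts per library, 0.0576 to 0.476 CPM, and was not called with differentiation or siTead1/4. The fitted courses differed at day 6, by 2.88 in PMs minus C2C12 cells (standard error 0.69). Rarb had 5 and 7 counts in siControl C2C12 cells at day 6, so no test of this difference is read from the fit. That difference was not called without C2C12 replicate 1 (2.50, adjusted p = 0.10), C2C12 replicate 2 (3.19, adjusted p = 0.062) or PM replicate 2 (2.69, adjusted p = 0.081).

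Rara (ENSMUSG00000037992, mm9 chr11:98789132-98836256, plus strand) was at 44.0 and 45.2 CPM in siControl C2C12 cells at day 0 and at 43.7 and 47.2 CPM in siControl PMs, and the cell types overlapped. In siTead1/4 PMs it was at 66.9 and 69.1 CPM at day 0, above both siControl libraries, a difference of 0.57 on the log2 scale (standard error 0.11, edgeR adjusted p = 0.014) that is under the fold threshold. At days 3 and 6 Rara was at 54.8 and 60.3 CPM and at 39.0 and 38.6 CPM in siTead1/4 PMs, against 42.9 and 47.3 CPM and 32.1 and 38.5 CPM in siControl PMs. Rarg (ENSMUSG00000001288, mm9 chr15:102065369-102087948, minus strand) was lower in PMs than in C2C12 cells. It was at 118 and 149 CPM in siControl C2C12 cells at day 0 and at 82.0 and 68.5 CPM at day 6, against 27.6 and 23.5 CPM and 23.1 and 21.0 CPM in siControl PMs. It was lower in PMs by 2.39, 2.13 and 1.77 on the log2 scale at days 0, 3 and 6 (standard errors 0.21 each, edgeR adjusted p = 1.2e-07, 6.05e-07 and 5.2e-06). In C2C12 cells it was lower by 0.87 at day 6 than at day 0 (standard error 0.21, edgeR adjusted p = 0.0084), which is under the fold threshold.

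The binding proteins were divided between the cell types: Crabp2 was the abundant one in C2C12 cells and Crabp1 was found almost only in PMs. Crabp2 (ENSMUSG00000004885, mm9 chr3:87752588-87757298, plus strand), which delivers retinoic acid to the receptors, was at 13.1 and 8.64 CPM in siControl C2C12 cells at day 0, at 61.6 and 49.5 CPM at day 3, and at 64.9 and 32.0 CPM at day 6. It rose by 2.31 on the log2 scale to day 3 (standard error 0.46, edgeR adjusted p = 0.0029) and by 2.12 to day 6 (standard error 0.45, adjusted p = 0.0041). The first call was lost without siControl replicate 2 (2.19, adjusted p = 0.063) and the second without siControl replicate 1 (1.86, adjusted p = 0.093). In siTead1/4 C2C12 cells it was at 7.78 and 19.1, 110 and 89.6, and 93.7 and 67.8 CPM. These libraries lay above the siControl libraries at days 3 and 6 by 0.82 and 0.74 on the log2 scale, without a call (standard error 0.435 each, edgeR adjusted p = 0.45 and 0.85).

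In siControl PMs Crabp2 dipped and recovered. It was at 5.19 and 4.99 CPM at day 0, at 1.54 and 1.64 CPM at day 3 and at 7.47 and 5.64 CPM at day 6. It fell by 1.73 on the log2 scale to day 3 (standard error 0.24, edgeR adjusted p = 0.00014) and rose by 2.03 from day 3 to day 6 (standard error 0.25, adjusted p = 0.0026). The rise from day 3 to day 6 was 1.77 without siControl replicate 1 (adjusted p = 0.14) and 2.25 without siControl replicate 2 (adjusted p = 0.068). The course from day 0 differed between the cell types by -4.03 at day 3 (PMs minus C2C12 cells, standard error 0.55, edgeR adjusted p = 9.0e-05) and by -1.80 at day 6 (standard error 0.53, adjusted p = 0.028). At day 6 that call was lost when any single replicate of either cell type was left out, with values from -1.97 to -1.53 and edgeR adjusted p = 0.058 to 0.22. Crabp2 in siTead1/4 PMs was at 10.5 and 9.38, 1.01 and 1.67, and 4.85 and 5.02 CPM. Only at day 0 did the p pass, with a difference of 0.95 (standard error 0.23, edgeR adjusted p = 0.031) under the fold threshold.

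Crabp1 (ENSMUSG00000032291, mm9 chr9:54612555-54620917, plus strand), a cytosolic carrier of retinoic acid, had 1 to 7 counts per C2C12 library. In siControl PMs it was at 1.31 and 0.451 CPM at day 0, at 15.9 and 3.39 CPM at day 3 and at 24.3 and 4.37 CPM at day 6. In siTead1/4 PMs it was at 0.870 and 0.237, 5.41 and 1.77, and 8.57 and 1.71 CPM. Replicate 1 was higher than replicate 2 in 6 of 6 PM groups, by 2.91 to 5.56 times, as were the endothelial and Schwann cell marker sums (1.46 to 3.80 and 2.41 to 5.08 times), and the part of these cells in the Crabp1 values was not tested. Crabp1 rose in siControl PMs by 3.35 on the log2 scale to day 3 (standard error 1.14, edgeR adjusted p = 0.027) and by 3.91 to day 6 (standard error 1.16, adjusted p = 0.013). Without siControl replicate 1 these were 2.85 (adjusted p = 0.14) and 3.21 (adjusted p = 0.091). Within each replicate number the siTead1/4 value was below the siControl value at each day, but across replicates the groups overlapped. With the replicates taken as unpaired, the fitted differences of -0.75, -1.42 and -1.47 were not called (standard errors 1.01 to 1.27, edgeR adjusted p = 0.78, 0.465 and 0.67), and without siControl replicate 1, which leaves the high replicate 1 in the siTead1/4 group alone, those of days 3 and 6 were 0.08 and 0.23.

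**Figure D2:**
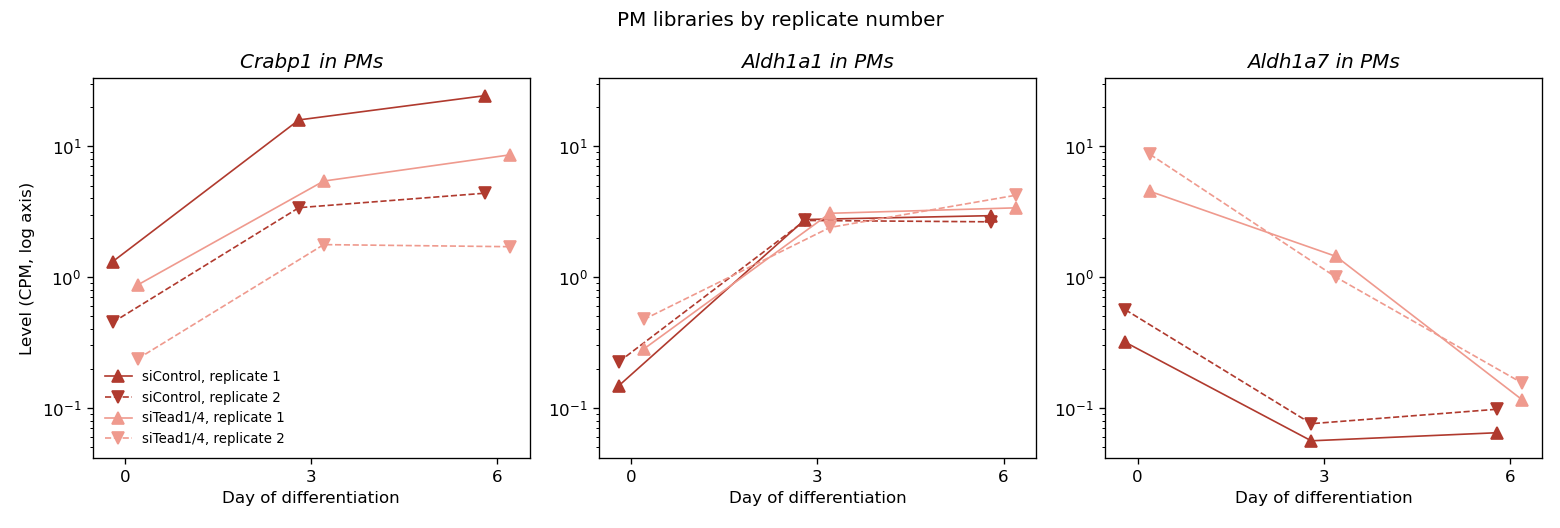
Level (CPM, log axis) of Crabp1, Aldh1a1 and its paralog Aldh1a7 in the 12 PM libraries against the day of differentiation; triangles pointing up and solid lines are replicate 1, triangles pointing down and dashed lines are replicate 2, dark red is siControl and light red siTead1/4. For Crabp1 replicate 1 lies above replicate 2 in 6 of 6 groups, the replicates of Aldh1a1 lie close together, and Aldh1a7 is at 4.51 and 8.65 CPM in siTead1/4 PMs at day 0 against 0.318 and 0.564 CPM in siControl PMs.

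The calls after siTead1/4 were also counted over all 10 genes, where a gene that was not called is not shown to be unchanged. In C2C12 cells 7 of the 10 passed the filter on low counts. Of these, 1 was called lower at day 3 (Cyp26b1), where 1.08% of all 15303 tested genes were called lower. None was called at days 0 and 6 by edgeR without a replicate block, where 0.438% and 0.0457% of all genes were called in either direction. An unadjusted p under 0.05 was reached by 1 member at day 0 and 2 at day 6, and DESeq2 called 0 and 1. In PMs all 10 passed the filter, and 1 was called higher at day 3 (Cyp26b1; background 2.1% of 16144 genes). None was called at day 0 (2.6% of all genes in either direction) or day 6 (0.743%) by edgeR without a replicate block, with 5 and 2 members at an unadjusted p under 0.05 and 0 called by DESeq2 at either day. At day 0, 3 of the members in PMs (Rara, Aldh1a3 and Crabp2) had an adjusted p under 0.05 and a change under the fold threshold. The median log2 fold change of the tested members was 0.30, -0.05 and 0.07 in C2C12 cells at days 0, 3 and 6 (all genes 0.02, 0.01 and 0.01) and 0.44, -0.15 and 0.05 in PMs (all genes -0.01, 0.01 and 0.0007). The siTead1/4 effect differed between the cell types for 1 member at day 3, where 1.02% of 16926 genes were called higher in PMs, and for 1 at day 6 (0.0295%), Cyp26b1 each time. At day 0 it differed for none by edgeR (0.00591% in either direction), with 2 members at an unadjusted p under 0.05 and 0 called by DESeq2. Any of these contrasts may have entered the choice of the genes, and nothing is read from the counts.

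**Figure D3:**
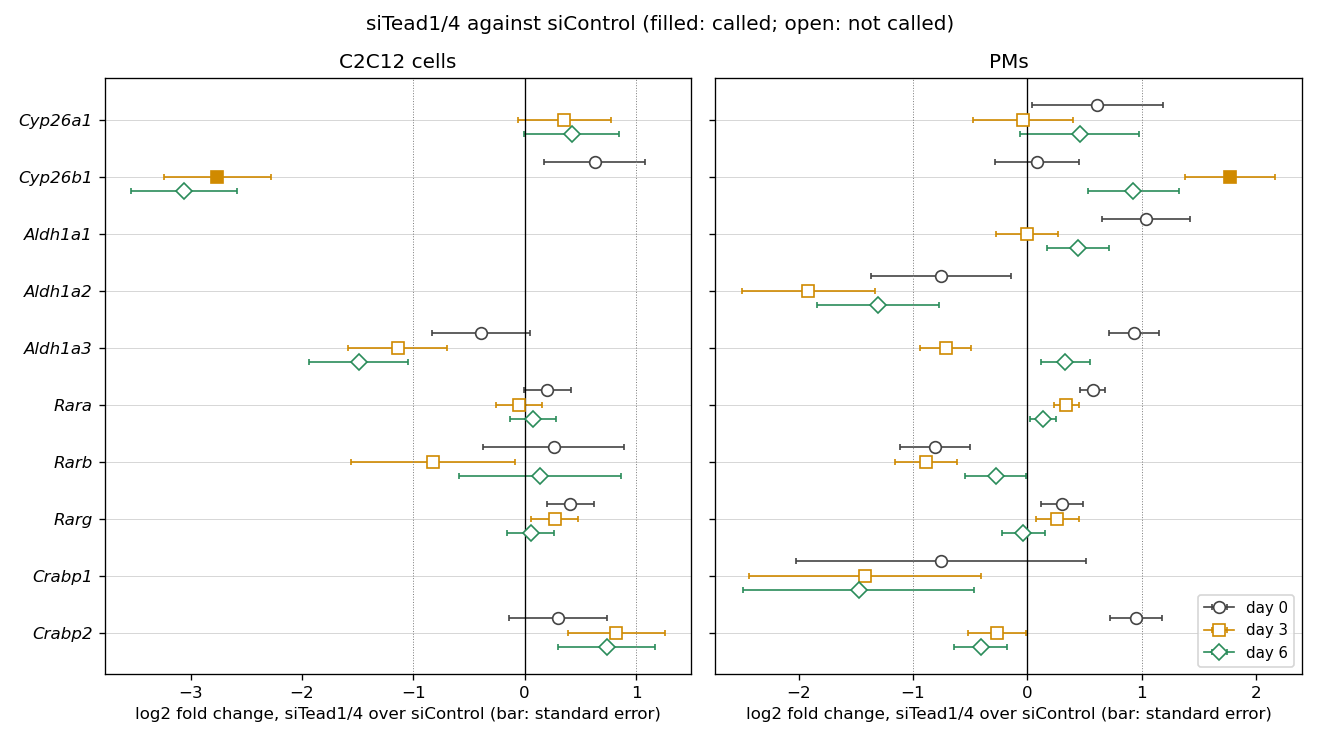
log2 fold change of siTead1/4 over siControl (x axis, bar: standard error from edgeR) for each gene at days 0, 3 and 6 in C2C12 cells (left) and PMs (right); filled symbols passed both thresholds (adjusted p below 0.05, and beyond the dotted lines at a log2 fold change of 1). Only Cyp26b1 at day 3 is filled, at -2.76 in C2C12 cells and at 1.78 in PMs; 3 genes that failed the filter in C2C12 cells and Cyp26a1 at day 0, which rests on 2 counts, are not drawn there.

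With differentiation of siControl C2C12 cells, Cyp26a1, Cyp26b1 and Crabp2 were called higher at both days, 3 of 7 tested members (background 16% of all tested genes called higher at day 3 and 17.1% at day 6). In PMs 5 members were called higher at day 3 (Cyp26a1, Aldh1a1, Aldh1a2, Rarb and Crabp1; background 17.5%) and 2 lower (Cyp26b1 and Crabp2; 14.9%). At day 6 in PMs 4 were higher (Aldh1a1, Aldh1a2, Rarb and Crabp1; 20.2%) and 1 lower (Cyp26b1; 15.3%), and from day 3 to day 6 only Crabp2 was called, as higher (2.22%). The courses differed between the cell types for 3 members at day 3, all lower in PMs (7.44%), and for 3 lower (7.43%) and 1 higher (5.27%) at day 6. Cyp26a1 in both cell types and Aldh1a1 in PMs had at most 8 counts in each siControl library of day 0 and passed the filter through other libraries, so nothing is read from these counts. Over the same days the fibroblast and progenitor markers also moved in siControl PMs. Their sum was 558 and 572 CPM at day 0 and 3896 and 2815 CPM at day 6, led by Col3a1 at day 0 and by Col1a1 at day 6, with 5 of the 8 markers called higher (Col1a1, Dcn, Lum, Thy1 and Cd34) and none at 0. The Schwann cell sum went from 5.02 and 2.08 CPM at day 0 to 14.2 and 2.80 CPM at day 6. Of the Schwann cell, smooth muscle, tenocyte and macrophage markers 1 each was called higher at day 6. Of the fat cell markers 1 was called lower, and of the endothelial markers 0 were called. The part of these changes in the rises of Aldh1a1, Aldh1a2, Rarb and Crabp1 was not tested. In C2C12 cells the sum of the fibroblast and progenitor markers was 934 and 1431 CPM at day 0 and 2785 and 2692 CPM at day 6.

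**Figure D4:**
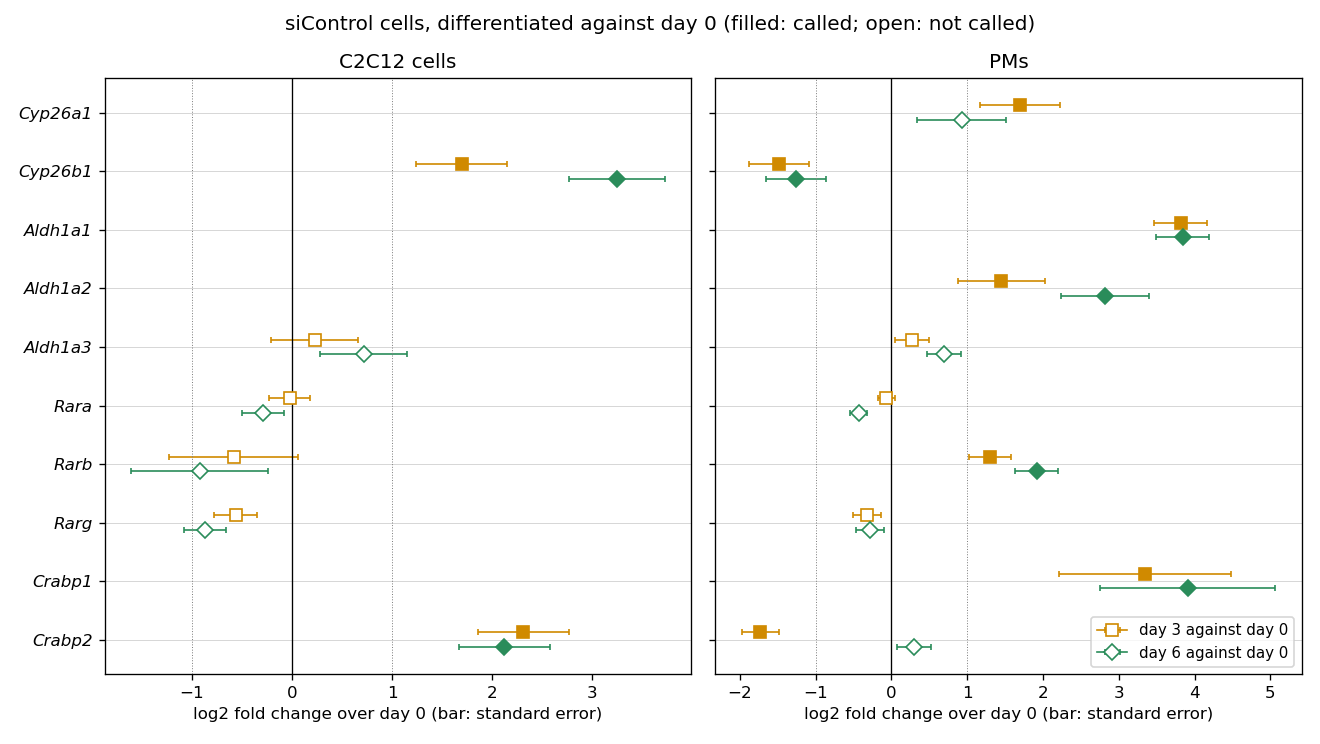
log2 fold change of siControl cells at day 3 (squares) and day 6 (diamonds) over day 0 (x axis, bar: standard error from edgeR) in C2C12 cells (left) and PMs (right); filled symbols were called. Cyp26b1 is filled at 1.70 and 3.24 in C2C12 cells and at -1.49 and -1.26 in PMs. Cyp26a1 in C2C12 cells, whose day 0 has 2 counts, and the 3 genes that failed the filter there are not drawn. Aldh1a1 and Cyp26a1 are drawn in PMs, where they had 7 and 8, and 5 and 3 counts at day 0. No test is read from their filled symbols.

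Between siControl cells of the 2 types, Rarb was called higher in PMs at each day (background 16.3%, 17.2% and 15.7% of 16926 genes at days 0, 3 and 6). Aldh1a1, Aldh1a2 and Crabp1 failed the filter on low counts in C2C12 cells and entered this fit through the PM libraries, so they had to come out higher in PMs and are given by their counts alone. Rarg and Crabp2 were called lower in PMs at day 0 (10.5%), joined by Cyp26a1 and Cyp26b1 at days 3 and 6 (12.6% and 9.22%). Cyp26a1 had 3 and 9 counts in siControl PMs at day 6, and nothing is read from its call there. Rara and Aldh1a3 were called at no day. Aldh1a1 was at least 5.55-fold higher in PMs at day 0, where C2C12 cells had 0 counts (floor of 3 counts over the group). It was 125-fold higher at day 3 (exact 95% counting interval 34.2 to 1040) and 57.1-fold at day 6 (21.9 to 212). The bound at day 0 was 3.40 without C2C12 replicate 1 and 2.15 without C2C12 replicate 2. Aldh1a2 was 16.2-fold higher at day 0 (6.64 to 51.4), and 10.1-fold without PM replicate 2. At day 3 it was 61.0-fold higher (23.5 to 226). At day 6 it was 186-fold higher (63.4 to 908), and 68.2-fold without C2C12 replicate 1 and at least 118-fold without C2C12 replicate 2. Crabp1 was 17.3-fold higher at day 0 (7.11 to 54.8), but 8.28-fold without PM replicate 1, the higher replicate in every PM group. Rarb was higher in PMs by 1.56 on the log2 scale at day 0 (standard error 0.46, edgeR adjusted p = 0.012). At days 3 and 6 it was higher by 3.47 and 4.44 (standard errors 0.47 and 0.50). In siControl C2C12 cells Rarb had 8 and 10 counts at day 3 and 5 and 7 counts at day 6. It passed the filter through other libraries than these, so the differences of days 3 and 6 are given without a test. Crabp2 was lower in PMs by 1.09, 5.12 and 2.89 at days 0, 3 and 6 (standard errors 0.37, 0.44 and 0.39, edgeR adjusted p = 0.028, 1.4e-07 and 2.3e-05). At day 0 the call of Rarb was lost without C2C12 replicate 1 (1.31, adjusted p = 0.11) and without PM replicate 1 (1.26, adjusted p = 0.14). That of Crabp2 was lost without C2C12 replicate 1 (-0.78, adjusted p = 0.17), PM replicate 1 (-1.15, adjusted p = 0.12) or PM replicate 2 (-1.09, adjusted p = 0.14).

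To compare levels between genes, CPM was divided by the gene length in kilobases. In siControl C2C12 cells at day 0 the order began with Rarg at 32.6 ± 5.31 CPM per kb (SD, n = 2), followed by Crabp2 at 11.7 ± 3.43 and Rara at 9.76 ± 0.185, the last 2 overlapping. Aldh1a3 was the only synthesis enzyme over 1 CPM per kb there, at 1.30 ± 0.0549. At day 6 Crabp2 led at 52.1 ± 25 CPM per kb, and Cyp26b1 had reached 5.39 ± 0.667. In siControl PMs at day 0 Rara led at 9.94 ± 0.540 CPM per kb, above Rarg at 6.23 ± 0.708 and Crabp2 at 5.47 ± 0.156, with no overlap between these neighbours. At day 6 Crabp1 had the highest mean in PMs, 17.9 CPM per kb, but its replicates spanned Rara at 7.71 ± 0.993. The synthesis enzymes there were Aldh1a2 at 3.02 ± 0.0134, Aldh1a1 at 1.36 ± 0.104 and Aldh1a3 at 1.35 ± 0.174, the latter pair overlapping, and both hydroxylases were at 0.254 CPM per kb or less.

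Other genes of the pathway were followed in 3 lists: retinoid supply (28 genes, 27 in the table), receptor partners and coregulators (11 genes) and textbook response genes (17 genes). In C2C12 cells edgeR called none of the 17, 11 and 9 tested genes of these lists after siTead1/4 at any day. At day 3, where most passed an unadjusted p of 0.05, this p was met by 3 genes of each list and DESeq2 called 2, 1 and 1. At days 0 and 6 it was met by 2, 2 and 0 and by 1, 1 and 2 genes, and DESeq2 called none. In PMs most of the calls were in the supply list. Dhrs3, which reduces retinal back to retinol, was at 1.84 and 2.42 CPM in siControl and 4.58 and 4.92 CPM in siTead1/4 PMs at day 0. At day 3 the order was turned, with 2.44 and 3.36 CPM in siControl and 0.837 and 0.972 CPM in siTead1/4 PMs. Dhrs3 was thus higher by 1.15 at day 0 (standard error 0.28, edgeR adjusted p = 0.034) and lower by 1.69 at day 3 (standard error 0.30, adjusted p = 0.0086). Adh7, an alcohol dehydrogenase that oxidises retinol and is named here after its values were seen, was higher by 1.67 and 1.19 at these days (standard errors 0.27 and 0.28, adjusted p = 0.0067 and 0.029), and Bcmo1, which cleaves carotene to retinal, was higher by 1.95 at day 3 (standard error 0.43, adjusted p = 0.022). With Aldh1a7 these make 3 higher and 0 lower of 17 tested at day 0, and 3 higher and 1 lower at day 3, with list medians of 0.26 and 0.08 against -0.01 and 0.01 for all genes. Of all tested genes 1.5% were called higher at day 0, and 2.1% higher and 1.2% lower at day 3. Fabp5, a fatty acid carrier that also binds retinoic acid, was the 1 of 11 receptor partners called, higher by 1.01 at day 3 (standard error 0.18, adjusted p = 0.0081; list median 0.12). The 8 tested response genes had a list median of 0.30 at day 0. At day 6 none of the 3 lists had a call by edgeR or DESeq2, and 6, 2 and 0 genes met an unadjusted p of 0.05.

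The RXR partners of the receptors differed in kind between the cell types. Rxra was at 48.5 and 54.3 CPM and Rxrb at 51.2 and 44.4 CPM in siControl C2C12 cells at day 0, and they were at 87.0 and 74.7 CPM and 39.9 and 36.3 CPM in PMs, without a call for either gene at any day. Rxrg had 2 and 0 counts in siControl C2C12 cells at day 0 and 619 and 460 counts (13.1 and 13 CPM) in siControl PMs, a ratio of 599 (exact 95% counting interval 165 to 4953). It was at least 245 without C2C12 replicate 1, which held both counts, and 232 without C2C12 replicate 2. In siControl PMs Rxrg reached 28.4 and 27.6 CPM at day 3 and returned to 12.8 and 13.7 CPM at day 6, a rise of 1.05 and a fall of 1.09 on the log2 scale (standard errors 0.144 and 0.145, edgeR adjusted p = 0.00012 and 0.0044). Rdh10, the retinol dehydrogenase of the embryo, was at 38.6 and 33.3 CPM in siControl C2C12 cells and at 5.77 and 7.47 CPM in siControl PMs at day 0, lower by 2.44 (standard error 0.23, adjusted p = 3.1e-07).

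With differentiation of siControl cells, the supply list had 2 genes higher and 2 lower of 17 tested in C2C12 cells at day 3 and 4 higher and 2 lower at day 6, and in PMs 3 higher and 2 lower, then 7 higher and 2 lower. Of all tested genes 16% were called higher and 12.7% lower in C2C12 cells at day 3, and 17.1% and 14% at day 6. In PMs these shares were 17.5% and 14.9%, then 20.2% and 15.3%. Cyp26c1, the third hydroxylase, went from 3 and 5 counts at day 0 to 35 and 22 counts at day 6 in C2C12 cells, a fitted difference of 2.93 (standard error 0.41). It passed the filter on low counts through other libraries than those of day 0, so its rise is given without a test. It was not called in PMs. Stra6, the retinol uptake receptor, fell by 2.65 to day 6 in PMs (standard error 0.60, adjusted p = 0.0030), and Rdh9, a retinol dehydrogenase, rose by 3.10 (standard error 0.39, adjusted p = 5.9e-05). Of the 9 tested response genes in C2C12 cells 2 were called higher and 1 lower at day 3, and 2 and 2 at day 6. In PMs 1 was higher and 1 lower of 8 at day 3, and 2 and 1 at day 6. The list medians were 0.29 and -0.13 in C2C12 cells, and 0.15 and -0.06 in PMs. Among these genes Tgm2, a transglutaminase, was at 7.15 and 4.37 CPM in C2C12 cells at day 0 and at 48.5 and 44.5 CPM at day 3. In PMs it was at 2.59 and 0.958 CPM at day 0 and at 193 and 171 CPM at day 6. It rose in both, by 2.98 to day 3 in C2C12 cells and by 6.57 to day 6 in PMs (standard errors 0.35 and 0.46, edgeR adjusted p = 0.000135 and 9.1e-07). Ret, a receptor kinase, fell by 3.88 to day 6 in C2C12 cells (standard error 0.40, edgeR adjusted p = 5.6e-05).

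For the member of each role with the widest range of group means, the genes with the most similar course over the 24 libraries were found by Pearson's r of log2 CPM. The libraries share cell types and days, so these values are descriptions. For Cyp26a1 they were Aldh3b1 (r = 0.94), Gm13398 (0.93) and 4931406C07Rik (0.92). For Aldh1a2 they were Svip (0.96), 4833412C05Rik (0.96) and Kcnip3 (0.96), and for Rarb they were Hspb6, Slit3 and Erc2 (0.95 each). For Crabp1 they were Zbtb16 (0.96), Acacb (0.96) and Tcfl5 (0.95).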

How the data were processed

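The authors mapped reads of TruSeq polyadenylated RNA libraries, which keep no strand, to mm9 and deposited 1 table with the raw count of each of 28109 genes per library, the same counts divided by DESeq2 size factors (not used here) and the gene length. The submitters' processing notes name CASAVA 1.8.2, TopHat2 2.0.10, Bowtie2 2.1.0, HTSeq 0.6.1 and DESeq2 1.8.1. The table's 36 columns for 12 further libraries without a listed sample were not used. No member shares annotated exons with another gene, and Aldh1a1 may share reads with its close copy Aldh1a7.

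Tests on the raw counts used edgeR 4.0.16 under R 4.3.3 (filterByExpr, TMM, glmQLFit and glmQLFTest). Each cell type was fitted alone with 6 group means (15303 genes in C2C12 cells and 16144 in PMs), and all 24 libraries together for comparisons of the cell types (16926 genes). P-values were adjusted by Benjamini-Hochberg over all tested genes of a comparison, and genes were called where that p was below 0.05 and the log2 fold change exceeded 1 in either direction. The standard error is the fold change over the root of the test's F. Levels are CPM on the TMM library sizes of all 24 libraries, with the SD of 2 replicates. Where neither library of a group had over 3 counts for a gene, the change is given as a ratio of counts with an exact 95% interval, or as a bound where the group is at 0. The fits were tested on simulated data.

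Alternatives were DESeq2 1.42.0 without shrinkage, median-of-ratios size factors, no filter, at least 10 counts in every library, a replicate block, other sets of libraries and each replicate left out. A replicate left out is that number of 1 siRNA, or of 1 cell type, at all 3 days, and the sample left alone is assumed to vary like the other groups. The labels call the replicates biological. The members and lists were chosen with earlier results of these data known. Named genes are the members, the siRNA targets, the partners Rxra, Rxrb, Rxrg, Rdh10, Dhrs3, Cyp26c1 and Aldh1a7, and per list and kind of comparison the called genes among the 2 with the largest change each way, of which the text gives a part. Some listed genes are not reported here. Comparisons with siControl at the same day share those libraries with the comparisons over days. Protein sequences were not used here.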

Additional observations from a re-analysis of the deposited data

Results flagged for a closer look

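These results are listed because the same contrast differed between C2C12 cells and PMs in a test of the difference itself (edgeR, all 24 libraries, PMs minus C2C12 cells on the log2 scale). For siTead1/4 against siControl, Cyp26b1 differed by 4.52 at day 3 and by 3.99 at day 6. For day 3 against day 0 in siControl cells, Crabp2 differed by -4.03, Cyp26a1 by -4.12 and Cyp26b1 by -3.16. For day 6 against day 0, Crabp2 differed by -1.80, Rarb by 2.88, Cyp26a1 by -4.76 and Cyp26b1 by -4.47. The values of Cyp26a1 rest on 2 counts in siControl C2C12 cells at day 0 and depend on how the fit treats low counts. At day 6 Cyp26a1 had 3 and 9 counts in siControl PMs, and Rarb had 5 and 7 in siControl C2C12 cells. No test is therefore read from the values of Cyp26a1 and Rarb listed here. PMs at day 0 already held myotube transcripts (9525 and 8607 CPM summed, against 88.6 and 36.6 CPM in C2C12 cells), and their part in these differences was not tested.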

How the results depend on the processing

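Counts are of calls on the members over the days of a comparison. For siTead1/4 against siControl in C2C12 cells the 1 call became 2 with DESeq2, 5 with no filter, 0 with at least 10 counts in every library, 2 with the replicate block, 3 with all 24 libraries in 1 fit and 0 with only the 4 libraries compared, and 0 to 2 with a replicate left out. In PMs the 1 call became 2 with DESeq2, 2 with no filter, 5 with the replicate block, 0 with all 24 libraries in 1 fit, and 0 to 1 with a replicate left out. The 2 calls of a different siTead1/4 effect became 1 with at least 10 counts, and 0 to 2 with a replicate left out. The 22 calls between the cell types, 9 of them on Aldh1a1, Aldh1a2 and Crabp1, which entered that fit through the PM libraries, became 8 and the 7 of different courses 4 with at least 10 counts, which leaves out the low members, and 19 to 21 and 4 to 5 with a replicate left out. The 13 calls with differentiation of PMs became 6 to 8, and the 6 of C2C12 cells 4, with a replicate left out. Apart from the alternatives named, the cause of these shifts was not tested. Median-of-ratios size factors changed no count of calls on the members.

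Crabp1 turned sign without siControl replicate 1. With a replicate left out its siTead1/4 change in PMs ran from -2.45 to 0.0845 at day 3 and from -3.06 to 0.23 at day 6, and the difference of the siTead1/4 effects at day 6 from -1.67 to 0.30, against -1.08 with all libraries. Of the values of single members, 311 kept direction and side of the threshold under the other alternatives, 19 came to pass and 6 no longer passed. With a replicate left out 149 kept them, 41 no longer passed and 1 came to pass.

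Replicate numbers were taken as only shared numbers. Deviations of same-numbered libraries correlated at 0.055 to 0.503 in PMs (14 of 15 pairs over 0.1, and 0.377, 0.409 and 0.503 between the siRNAs of the same day) and at -0.168 to 0.468 in C2C12 cells (6 of 15 over 0.1 and 3 under -0.1). With the replicate block, siTead1/4 calls in PMs were Cyp26b1 at day 3, Aldh1a2 at days 3 (-1.96) and 6 (-1.37) and Crabp1 at days 3 (-1.29) and 6 (-1.43), with edgeR adjusted p = 0.0056, 0.040, 0.0042 and 0.0061 for the last 4. In C2C12 cells they were Cyp26b1 at day 3 and at day 6 (-3.11, adjusted p = 0.043), and with crossed numbers 1 member was called at day 3 and 0 at day 6. With crossed numbers, chosen after seeing the data, siTead1/4 C2C12 cells at day 0 had 37 genes higher and 83 lower, against 27 and 55 as numbered and 21 and 46 without a block.

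Over all genes, calls for siTead1/4 in C2C12 cells were 67, 195 and 7 at days 0, 3 and 6, and ran from 0 to 480, 7 to 1055 and 0 to 387 over the alternatives that keep all replicates, and from 0 to 359, 2 to 814 and 0 to 65 with a replicate left out. With the same pair of ranges, they were 420 (204 to 586, 120 to 171), 532 (312 to 804, 163 to 388) and 120 (0 to 335, 0 to 57) in PMs. The differences of the siTead1/4 effect gave 1 (1 to 88, 0 to 42), 212 (115 to 853, 8 to 603) and 6 (0 to 146, 0 to 34). PMs from day 3 to day 6 gave 452 (148 to 732, 5 to 17). The cell types gave 4534, 5044 and 4210, and 2096, 2353 and 1662 with at least 10 counts. The courses differed for 1901 (1238 to 2333, 1075 to 1174) and 2150 (1349 to 2620, 1240 to 1396) genes. With a replicate left out, C2C12 differentiation fell from 4390 to 1337 to 1589 at day 3 and from 4761 to 1610 to 2029 at day 6. With size factors the split of siTead1/4 C2C12 calls at day 6 was 1 higher and 5 lower, against 2 and 5. Leaving single libraries out of the ratios of counts was chosen after seeing the data. Members with under 10 counts in a library are limited by depth.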
